A study of Rattus norvegicus with 4 samples.

Results

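The genes described here encode enzymes that oxidise pyruvate and fatty acids in mitochondria, and the enzymes and assembly factors of peroxisomes. They were taken by gene symbol, as the probe sets that the platform annotation gives to a single gene whose symbol is among 56 names. Of these names, 51 had at least 1 such probe set, 61 probe sets in all out of 15923 on the array. Pcx was found under its current symbol, Pc. Fh, Dlat, Pex7 and Pex16 had no probe set listed under their names, and Acaa1a shared its only probe set with Acaa1b and was not used. Another 4 genes, Acox3, Ehhadh, Pex6 and Pex19, had a mean below the limit set for dim genes (a log2 signal of 6.60), which left 47 tested genes.

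The cells were RTEC11, a conditionally immortalised tracheal epithelial line from rats transgenic for a temperature-sensitive large T antigen of simian virus 40. Large T antigen drives the cell cycle by disabling p53 and the retinoblastoma family, and this form works at the permissive and fails at the nonpermissive temperature. Cultures were held for 3 days at 33 °C (permissive) or 39 °C (nonpermissive), with 2 Affymetrix arrays at each temperature. All 4 samples carry the transgene and come from a single line, and there was no line without the antigen, so the effects of heat and of antigen loss cannot be told apart. The labels are silent on whether the 2 arrays of a temperature were grown separately. The p-values therefore reflect only how far these arrays scatter, with variance shared across genes, and possibly for technical reasons. In such bulk RNA, fewer cells of a kind and less RNA per cell cannot be told apart.

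In the tricarboxylic acid (TCA) cycle, acetyl groups from pyruvate and fatty acids are joined to oxaloacetate and oxidised, and the electrons pass to the respiratory chain. Fatty acids first become acyl-CoA, enter mitochondria as carnitine esters, and are shortened by rounds of dehydrogenation, hydration, dehydrogenation and thiolysis. Peroxisomes run a similar shortening of very long and branched chains and rely on peroxins (the Pex proteins) to import their enzymes. In airway epithelium these pathways supply ATP for ion transport and ciliary beating, and peroxisomes make ether lipids and dispose of hydrogen peroxide.

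Signals are given as log2(intensity + 16) after quantile normalisation, and a change is the 39 °C mean minus the 33 °C mean, so it understates the change of dim genes. "Higher" and "lower", or "rose" and "fell", mark an adjusted p under 0.05 in limma, fitted to all 7016 tested genes and adjusted over them by the Benjamini-Hochberg method. Such calls were made for 49.1% of all tested genes, 23.1% higher and 26.1% lower, and the 2 arrays of each temperature did not overlap in 75.1%. The number of arrays limits the precision. Most epithelial markers were bright: 11 of 13 with a probe set lay above the dim limit. The summed deposited intensity of the epithelial markers was 79499 and 83588 at 33 °C and 89854 and 89418 at 39 °C. Of the 11, 5 were higher at 39 °C (Krt8, Krt19, Epcam, Cldn4 and Dsp), 2 lower (Krt7 and Krt18) and 4 not called. Krt5 and Cldn7 had means below the dim limit. Of 11 fibroblast and smooth muscle markers 3 lay above it (Col3a1, Des and Acta2, of which Col3a1 and Des were higher at 39 °C), with sums of 534.5 and 668.3 at 33 °C and 993 and 818.5 at 39 °C, while the other 8 had means below it. Of these 8, Col1a1, Col1a2, Pdgfra and Dcn had means below the limit at both temperatures, and Myh11, a smooth muscle myosin, was at 5.01 and 5.36 at 33 °C and above the limit at 39 °C, at 7.09 and 6.96. Col3a1 (6.298 and 6.031) and Des (6.272 and 6.667) also had 33 °C means below the limit, and passed it through their 39 °C arrays. For them, lying above the limit and being higher at 39 °C are therefore not separate observations. The part of fibroblasts and smooth muscle cells in the results was not tested.

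The oxidative genes did not move as a block. Of the 47 tested, 13 were higher, 14 lower and 20 not called at 39 °C, which is 57.4% called, and 37 had arrays that did not overlap between temperatures. Both shares lay near those of all genes and are not read as a property of these genes. Their median log2 change was -0.023, against -0.043 for all tested genes. Both rises and falls were called in every group but peroxisomal oxidation, where Scp2 alone was called, higher, and 3 genes (Acadl, Pcx and Cpt1a) rose at least 2-fold while none fell that far. Across all tested genes, 6.16% rose and 4.73% fell at least 2-fold with a call.

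**Figure D1:**
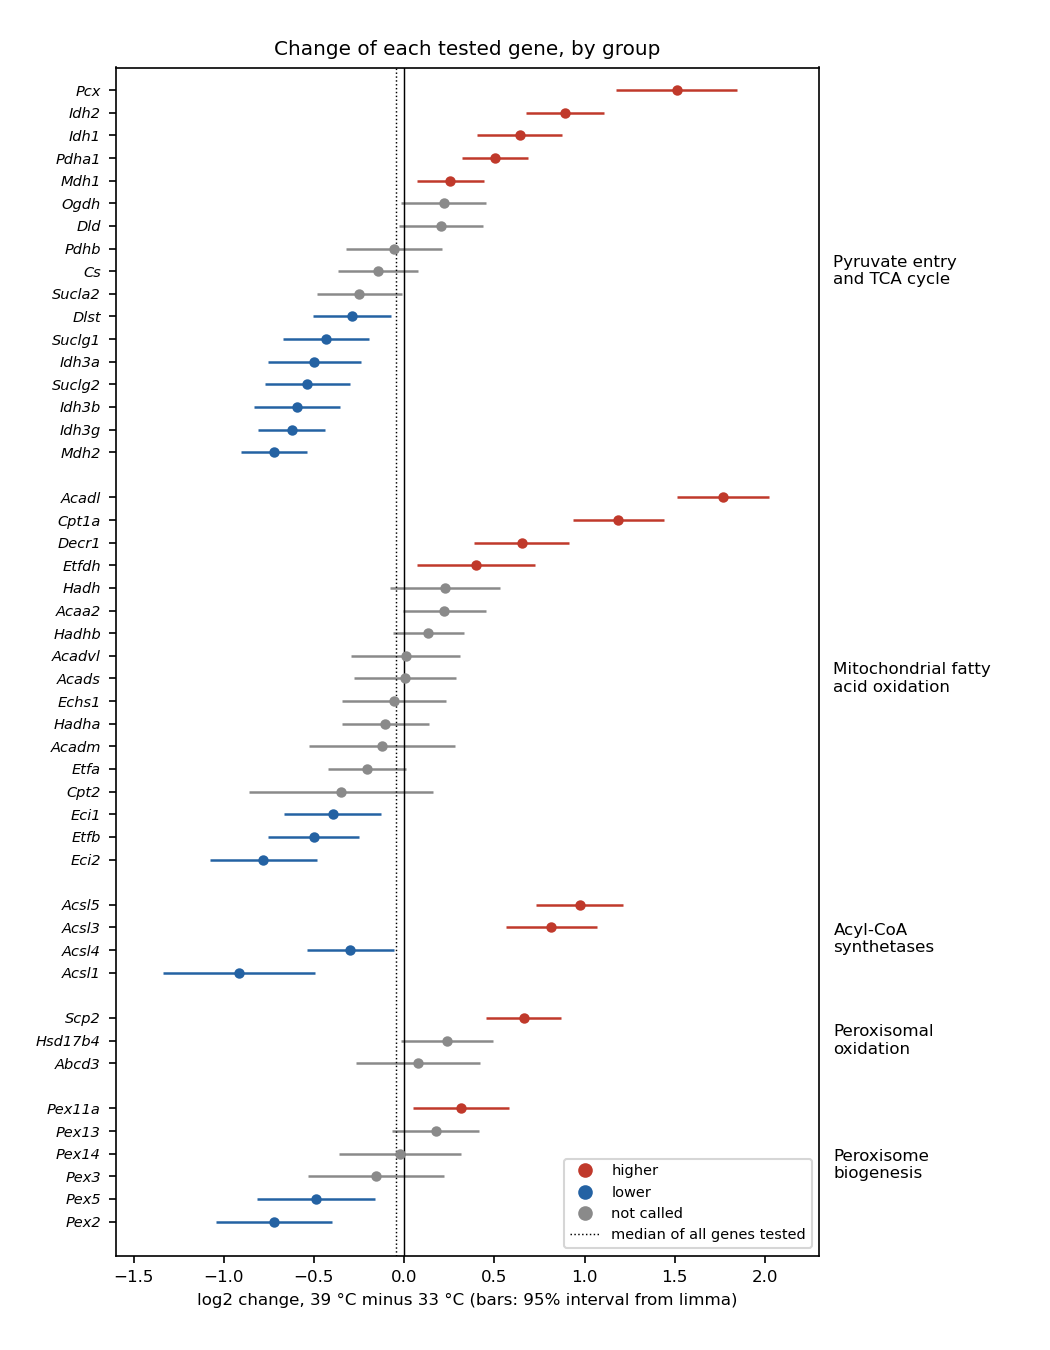
The log2 change of each of the 47 tested genes from 33 °C to 39 °C (x axis) is plotted by group, with points for the estimate, bars for the 95% interval from limma, and colour for the call. Acadl, Pcx and Cpt1a stand furthest to the right, at 1.77, 1.51 and 1.19, and Acsl1 furthest to the left, at -0.92.

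Among enzymes that feed pyruvate into the TCA cycle, Pcx and Pdha1 were higher and Pdhb and Dld were not called. Pyruvate carboxylase (Pcx), which turns pyruvate into oxaloacetate and so refills the cycle, had signals of 7.98 and 7.85 at 33 °C and 9.25 and 9.60 at 39 °C. Both arrays at 39 °C lay above both at 33 °C. The rise was 2.85-fold, a log2 change of 1.51 ± 0.15 (SE, adjusted p 1.42e-05). The alpha subunit of the first component of pyruvate dehydrogenase (Pdha1), the site at which the complex is switched off by phosphorylation, had signals of 11.65 and 11.69 at 33 °C and 12.14 and 12.20 at 39 °C, without overlap. It rose by 0.50 ± 0.084 (SE, adjusted p 0.000476), and its second probe set had a change of 0.24 that was not called. A further scaling put the arrays on the scale of the poly-A spike-in control probe sets (spike-in scaling). On the deposited scale these controls had mean log2 signals of 6.63 and 6.69 at 33 °C and 6.99 and 7.09 at 39 °C. Such means lie near the dim limit of 6.60, and whether this scaling is sound was not tested. With spike-in scaling Pdha1 had a change of 0.026 and no call. The beta subunit of the same component, Pdhb, had a change of -0.055, with a 95% interval from -0.32 to 0.21, and was called lower with spike-in scaling (-0.39). Dld, the dihydrolipoamide dehydrogenase shared by the pyruvate and alpha-ketoglutarate complexes, had a change of 0.21 and was not called.

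In the cycle itself, several of the later steps were lower, and the call of the condensing enzyme varied with the scaling. Citrate synthase (Cs), the entry step, had signals of 11.47 and 11.58 at 33 °C and 11.28 and 11.49 at 39 °C, which overlapped. Its change was -0.15, with a 95% interval from -0.37 to 0.075, and its further probe sets were at -0.069 and -0.16. It was called lower with median-centred arrays (-0.37) and with spike-in scaling (-0.60). Mitochondrial malate dehydrogenase (Mdh2), which regenerates oxaloacetate, had signals of 12.42 and 12.41 at 33 °C and 11.73 and 11.65 at 39 °C, with no overlap. It fell by 0.72 ± 0.084 (SE, adjusted p 3.60e-05), the deepest fall of the TCA group.

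The malate dehydrogenase of the cytosol, Mdh1, which works in the malate-aspartate shuttle, was instead higher, at 12.25 and 12.22 against 12.55 and 12.43. Its change of 0.26 (adjusted p 0.0251) lost its call on the deposited scale (0.16), with median-centred arrays (0.013), and without permissive replicate 2 (0.24) or nonpermissive replicate 1 (0.20), and it was -0.22 with spike-in scaling. The alpha-ketoglutarate dehydrogenase complex was mixed: its first component Ogdh had a change of 0.22 and was not called, and Dlst, its succinyl-transferring core, fell by 0.29, a call that was lost when any of the 4 arrays was left out (-0.31 to -0.26). Of the subunits of succinyl-CoA ligase, the step that yields a nucleoside triphosphate, the shared alpha subunit Suclg1 fell by 0.43 and the GTP-forming subunit Suclg2 by 0.54. The Suclg1 call was lost without nonpermissive replicate 1 (-0.33). The ATP-forming subunit Sucla2 had a change of -0.25 and was not called, with an adjusted p of 0.076. It was called lower with median-centred arrays (-0.36) and with spike-in scaling (-0.60).

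The isocitrate dehydrogenases split by cofactor. The NAD-dependent enzyme, which runs the forward step of the cycle, is built from Idh3a, Idh3b and Idh3g, and all of its subunits fell. Idh3g, a regulatory subunit, had signals of 12.02 and 12.02 at 33 °C and 11.39 and 11.41 at 39 °C, and fell by 0.62 ± 0.085 (SE, adjusted p 0.000112). The other regulatory subunit, Idh3b, fell by 0.59 and the catalytic Idh3a by 0.50, each with arrays that did not overlap. The calls of these 3 subunits held in all 15 alternative settings.

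The NADP-dependent isocitrate dehydrogenases, which make NADPH, were higher. Idh2, the mitochondrial form, had signals of 11.32 and 11.24 at 33 °C and 12.29 and 12.05 at 39 °C, with no overlap. It rose 1.86-fold, by 0.89 ± 0.099 (SE, adjusted p 2.64e-05), and the call held in all 15 alternatives. Idh1, the form of the cytosol and peroxisomes, was at 9.73 and 9.63 against 10.37 and 10.28 and rose by 0.64 ± 0.11 (SE). With spike-in scaling its change was 0.28 and the call was lost (adjusted p 0.0752).

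Because these enzymes act on the same substrate and changed in opposite directions, the sequences at their start sites are shown. The promoter table of RefSeq, build GRCr8, gave 300 bases per gene, from 250 before to 50 after the start, for 49 of the 56 names, and Idh3a was not among them. Letters are 5′ to 3′ along the gene's strand, and capitals mark the pentamer CCAAT and the hexamer AGGTCA on either strand. The E-box and NRF1 motifs described further on were searched too and were not found in these windows.
Idh1, chr9:74049425-74049724, minus strand: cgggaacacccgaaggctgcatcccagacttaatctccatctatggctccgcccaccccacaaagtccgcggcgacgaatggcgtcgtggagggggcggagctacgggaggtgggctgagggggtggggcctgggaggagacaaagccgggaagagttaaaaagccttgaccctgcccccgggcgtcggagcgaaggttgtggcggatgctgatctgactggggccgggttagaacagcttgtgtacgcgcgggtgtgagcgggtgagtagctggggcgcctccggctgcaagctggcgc
Idh2, chr1:143467199-143467498, minus strand: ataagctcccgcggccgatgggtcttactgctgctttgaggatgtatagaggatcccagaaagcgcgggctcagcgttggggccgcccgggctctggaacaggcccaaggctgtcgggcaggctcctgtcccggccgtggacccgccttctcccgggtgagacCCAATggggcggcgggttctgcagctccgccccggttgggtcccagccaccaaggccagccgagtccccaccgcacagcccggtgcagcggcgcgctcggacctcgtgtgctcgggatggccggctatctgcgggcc
Idh3b, chr3:137939941-137940240, minus strand: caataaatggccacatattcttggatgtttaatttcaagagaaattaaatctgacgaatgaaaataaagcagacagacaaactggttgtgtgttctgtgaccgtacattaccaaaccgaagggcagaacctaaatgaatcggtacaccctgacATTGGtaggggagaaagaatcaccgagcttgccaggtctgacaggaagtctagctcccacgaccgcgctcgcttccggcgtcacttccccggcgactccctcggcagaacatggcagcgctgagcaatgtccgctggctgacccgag
Idh3g, chrX:156675433-156675732, minus strand: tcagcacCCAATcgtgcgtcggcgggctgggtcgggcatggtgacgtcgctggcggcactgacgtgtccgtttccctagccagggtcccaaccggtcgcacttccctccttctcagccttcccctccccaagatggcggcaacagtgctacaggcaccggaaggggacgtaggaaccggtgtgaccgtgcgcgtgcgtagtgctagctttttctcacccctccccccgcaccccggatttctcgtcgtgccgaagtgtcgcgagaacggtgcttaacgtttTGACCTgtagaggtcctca
CCAAT is the letter core of the CCAAT box, and AGGTCA the hexamer that many nuclear receptors bind, which is also part of the longer DR1 and ERRE motifs below. Idh2, which rose, held CCAAT at position -87, counted with the start site as 0, and Idh3b and Idh3g, which fell, held it at -97 and -243, Idh3b on the opposite strand. The AGGTCA hexamer was found in Idh3g only, at position 31 and on the opposite strand, and neither motif was found in the Idh1 window. Over the 33469 promoters of the table, 37.49% held CCAAT and 16.18% held AGGTCA. Of the 49 promoters of the genes described here, 40.82% and 20.41% did. These letter matches describe the sequence and do not show that a factor binds there.

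**Figure D2:**
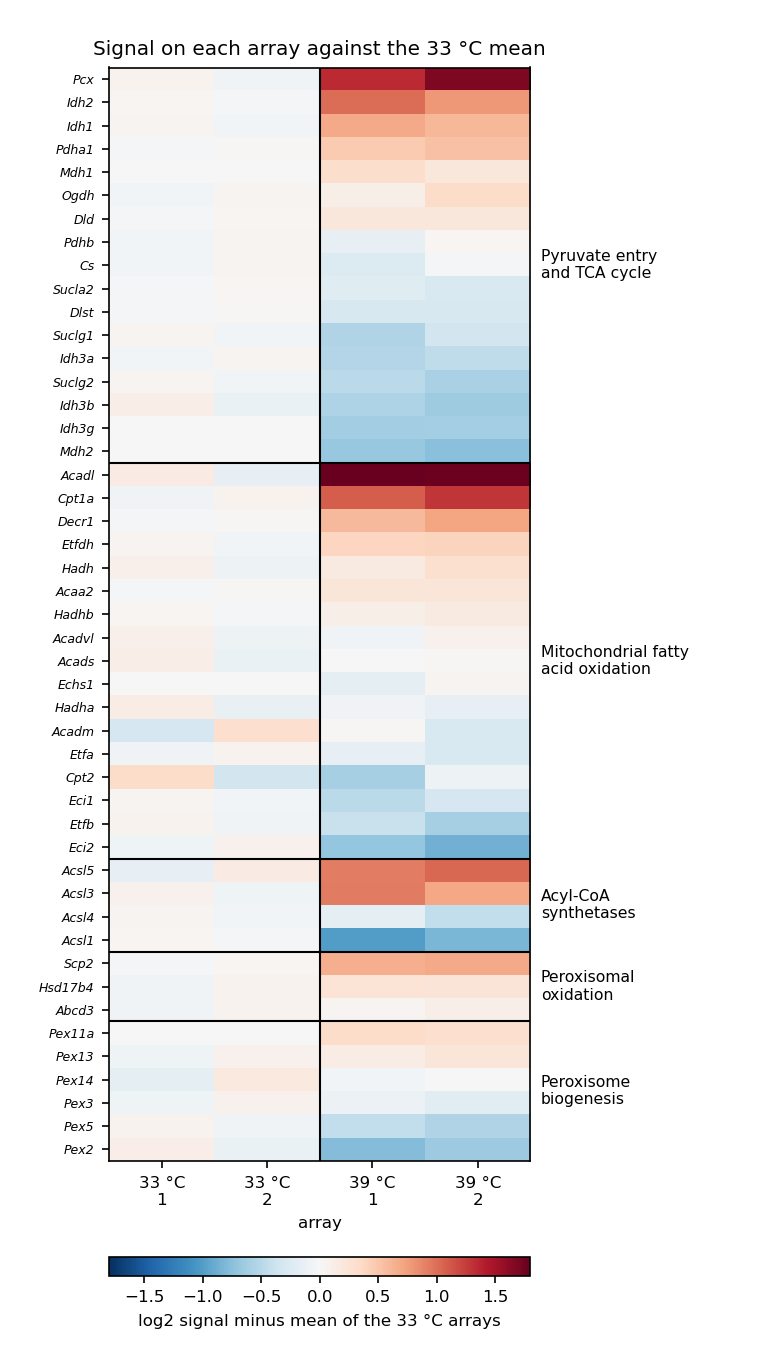
The signal of each tested gene on each of the 4 arrays is shown as a colour, as its log2 value minus the mean of the 33 °C arrays, with red above and blue below that mean. The 39 °C columns hold both deep red (Pcx, Acadl, Cpt1a) and blue (Mdh2, Eci2, Acsl1) within the same pathways, and the 33 °C columns differ most from each other for Cpt2 and Acadm.

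Mitochondrial fatty acid oxidation held the largest single rise of all these genes. Of 17 tested, 4 rose, 3 fell and 10 were not called, which is 41.2% called, against 49.1% of all tested genes. With spike-in scaling 3 were higher and 9 lower. The median change was 0.0041. Long-chain acyl-CoA dehydrogenase (Acadl), which starts the shortening of long and branched chains, had signals of 9.61 and 9.32 at 33 °C and 11.24 and 11.22 at 39 °C. Both arrays at 39 °C lay well above both at 33 °C. It rose 3.41-fold, by 1.77 ± 0.12 (SE, adjusted p 6.43e-07). The other acyl-CoA dehydrogenases, Acadm, Acads and Acadvl, which act on medium, short and very long chains, had changes of -0.12, 0.0041 and 0.0078, and their arrays overlapped. Their 95% intervals ran from -0.53 to 0.28, -0.28 to 0.29 and -0.30 to 0.31. Acadm was called lower with spike-in scaling (-0.44) and without permissive replicate 1 (-0.42).

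Carnitine palmitoyltransferase 1A (Cpt1a), on the outer mitochondrial membrane, makes the carnitine esters and sets the rate of fatty acid entry. Its signals were 9.38 and 9.51 at 33 °C and 10.54 and 10.73 at 39 °C, so the temperatures did not overlap. It rose 2.28-fold, by 1.19 ± 0.11 (SE, adjusted p 9.72e-06), and a second probe set changed by 0.94. Cpt2, the inner-membrane enzyme that turns the esters back into acyl-CoA, had signals of 8.71 and 8.04 at 33 °C and 7.77 and 8.28 at 39 °C. The arrays of a temperature differed widely, and its change of -0.35 was not called (95% interval -0.86 to 0.16). It was called lower without permissive replicate 2 (-0.68) and with spike-in scaling (-0.61). The calls of Acadl and Cpt1a held in all 15 alternatives.

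The enzymes of the spiral after the first dehydrogenation were not called with quantile normalisation, and 3 of the 5 were called lower with spike-in scaling. The trifunctional protein subunits Hadha and Hadhb had changes of -0.10 and 0.13, the hydratase Echs1 -0.058, the short-chain hydroxyacyl dehydrogenase Hadh 0.23 and the thiolase Acaa2 0.22. With spike-in scaling Hadha, Hadhb and Echs1 were called lower, at -0.49, -0.32 and -0.35. Auxiliary enzymes for unsaturated fatty acids did pass, in opposite directions. Decr1, the dienoyl-CoA reductase, had signals of 8.98 and 9.03 at 33 °C and 9.59 and 9.72 at 39 °C, and rose by 0.65 ± 0.12 (SE, adjusted p 0.000874). Eci2, an enoyl-CoA isomerase of mitochondria and peroxisomes, had signals of 9.22 and 9.37 at 33 °C and 8.60 and 8.42 at 39 °C. It fell by 0.78 ± 0.14 (SE, adjusted p 0.000604). Eci1, the mitochondrial isomerase, fell by 0.40. It was not called as the mean of its probe sets (-0.16), nor when permissive replicate 1 (-0.34) or nonpermissive replicate 1 (-0.31) was left out. The second probe set in that mean was below the dim limit on every array, at 4.24 to 4.35. The chosen probe set ends in _s_at, and Eci1 was not tested without such probe sets.

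Electrons from the acyl-CoA dehydrogenases reach the respiratory chain through the flavoprotein ETF, made of Etfa and Etfb, and its ubiquinone oxidoreductase Etfdh. Etfb had signals of 10.36 and 10.22 at 33 °C and 9.89 and 9.69 at 39 °C and fell by 0.50 ± 0.11 (SE, adjusted p 0.00375), with no overlap. Etfa had a change of -0.21 and was not called, but was called lower with median-centred arrays (-0.38) and with spike-in scaling (-0.61). Etfdh was at 8.11 and 8.01 against 8.46 and 8.46, a rise of 0.40 ± 0.15 (SE, adjusted p 0.0454). The Etfdh call was lost when any of the 4 arrays was left out (0.34 to 0.45), with median-centred arrays (0.37) and with spike-in scaling (0.13).

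The promoters of this pair, in which the partners changed in opposite directions, both held the motif of the nuclear respiratory factor NRF1, a regulator of many mitochondrial genes. They are from the same RefSeq table, with the NRF1 match in capitals.
Etfb, chr1:102988249-102988548, plus strand: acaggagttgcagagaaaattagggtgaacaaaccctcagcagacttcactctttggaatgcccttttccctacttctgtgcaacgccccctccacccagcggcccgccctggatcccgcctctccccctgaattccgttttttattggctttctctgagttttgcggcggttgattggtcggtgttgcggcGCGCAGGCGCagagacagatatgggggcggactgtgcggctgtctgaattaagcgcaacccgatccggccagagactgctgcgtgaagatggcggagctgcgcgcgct
Etfdh, chr2:167060709-167061008, minus strand: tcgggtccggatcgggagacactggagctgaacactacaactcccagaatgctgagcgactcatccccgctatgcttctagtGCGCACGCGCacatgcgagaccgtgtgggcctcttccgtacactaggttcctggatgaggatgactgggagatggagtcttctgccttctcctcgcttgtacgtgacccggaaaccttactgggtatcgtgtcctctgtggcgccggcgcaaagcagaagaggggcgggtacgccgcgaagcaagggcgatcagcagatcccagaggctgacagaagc
The match began at position -58 in Etfb and at -168 in Etfdh. The motif searched was GCGCNT followed directly by GCGC, on both strands, and 4.255% of all promoters and 6 of the 49 described here held it. The others were Abcd3, Dld, Pex16 and Sucla2, of which the tested ones were not called. On both strands, the DR1 motif of PPAR-RXR pairs (AGGTCA, any base, AGGTCA) was found in 0 of the 49, against 0.05378% of all promoters, and the ERRE motif of estrogen-related receptors (TCAAGGTCA) in 0, against 0.4332%. The E-box CACGTG was found in 2, Ogdh and Pdhb, neither of them called, against 6.418%.

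All 4 long-chain acyl-CoA synthetases, which activate free fatty acids with CoA, were called, and they split evenly. Calls were made for 49.1% of all tested genes, and a count over 4 genes is not read as a property of the family. Acsl5, an enzyme of mitochondria and the endoplasmic reticulum, had signals of 10.88 and 11.19 at 33 °C and 11.95 and 12.07 at 39 °C, and rose 1.96-fold, by 0.97 ± 0.11 (SE, adjusted p 3.08e-05). Acsl3, found on the endoplasmic reticulum and lipid droplets, was at 9.91 and 9.76 against 10.76 and 10.53 and rose 1.76-fold (adjusted p 0.000147). Neither overlapped between temperatures.

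Acsl1, the form best known from liver, heart and fat, went the other way, from 8.04 and 7.97 to 6.99 and 7.18, and was 1.89-fold lower (adjusted p 0.0022). Its second probe set was at 7.88 and 7.79 against 5.62 and 7.04, a change of -1.50, with the lower 39 °C array under the dim limit. Acsl4, which prefers arachidonic acid, had signals of 11.21 and 11.12 at 33 °C and 11.01 and 10.73 at 39 °C. Its fall of 0.30 (adjusted p 0.041) was no longer called when permissive replicate 1 (-0.25) or nonpermissive replicate 2 (-0.16) was left out, nor with no dim limit or no intensity trend.

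In peroxisomal oxidation 3 of 6 genes could be tested, and only Scp2 was called. Scp2 encodes sterol carrier protein X, the thiolase for branched chains, together with a lipid-transfer protein. Its signals were 10.47 and 10.55 at 33 °C and 11.16 and 11.19 at 39 °C, with no overlap, and it rose by 0.66 ± 0.094 (SE, adjusted p 0.000155). A second, dimmer probe set had a change of 0.028, and the mean of both was not called (0.35). Spike-in scaling gave 0.26, also without a call (adjusted p 0.0647). Hsd17b4, the peroxisomal bifunctional enzyme, had a change of 0.24 and Abcd3, a transporter of the peroxisomal membrane, 0.078, with 95% intervals from -0.016 to 0.49 and -0.26 to 0.42. Ehhadh, the other bifunctional enzyme, was below the dim limit on every array, at 5.34 and 4.50 and at 6.06 and 5.73, as was the branched-chain oxidase Acox3, at 5.73 to 6.04.

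Among peroxins, the falls were those of an import receptor and a ubiquitin ligase. Pex2, a subunit of the membrane ligase that recycles import receptors, had signals of 9.07 and 8.83 at 33 °C and 8.16 and 8.30 at 39 °C. It fell by 0.72 ± 0.15 (SE, adjusted p 0.00178), and the call held in all 15 alternatives. Pex5, the receptor that carries most matrix enzymes in, was at 8.64 and 8.52 against 8.14 and 8.04 and fell by 0.49 (adjusted p 0.0175). On the deposited scale (-0.37), and when permissive replicate 1 (-0.43) or nonpermissive replicate 2 (-0.44) was left out, Pex5 was not called.

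Pex11a, which promotes peroxisome division, was at 8.95 and 8.95 against 9.27 and 9.26, a rise of 0.32 that barely passed (adjusted p 0.0483). It was not called when any array was left out (0.31 to 0.33), nor with median-centred arrays (0.24), spike-in scaling (0.011) or the mean of its probe sets (0.067), and its second probe set had a change of -0.18. The docking proteins Pex13 and Pex14 had changes of 0.17 and -0.023 and the membrane-assembly factor Pex3 -0.16, none called. Pex6, an ATPase that extracts the receptor, was at 6.76 and 6.55 and at 6.24 and 6.50, and Pex19, the chaperone of membrane proteins, was between 5.50 and 6.75. Both had means under the dim limit.

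A shift of a whole array on the log2 scale cancels in the ratio of 2 of its signals. Ratios of paired enzymes were therefore also formed within each array on the deposited scale. A ratio does not by itself give the direction of each partner. Of the 27 called genes, only Mdh1 turned in sign under another scaling, at -0.22 with spike-in scaling. Pdha1, Idh1 and Etfdh kept their sign with spike-in scaling but lost their calls. In the pairs Pdha1 and Pdhb, Acadl and Acadm, and Cpt1a and Cpt2, the second partner was not called. The 10 pairs were chosen after their values were seen, so they are described and not tested; with 2 arrays against 2, an exact two-sided permutation test cannot give a p below 0.333. The ratio of Idh2 to Idh3g, on the log2 scale and relative to its 33 °C mean, was 0.051 and -0.051 at 33 °C and 1.66 and 1.38 at 39 °C, a 2.87-fold increase. That of Mdh1 to Mdh2 was 0.015 and -0.015 against 0.99 and 0.97, or 1.97-fold. Etfdh over Etfb was 1.99-fold higher, Acsl3 over Acsl4 2.25-fold and Acsl5 over Acsl1 3.16-fold. Pdha1 over Pdhb, 2 subunits of the same complex, changed least, 1.33-fold. The ratios of Acadl to Acadm and of Cpt1a to Cpt2 varied more at 33 °C, with SDs of 0.66 and 0.58 (n = 2), and were 3.54-fold and 2.70-fold higher at 39 °C. The arrays of the temperatures did not overlap in any of the 10 pairs, which is not read as a result because the pairs were picked by these values. Among all tested single genes 75.1% did not overlap, and the share over other gene pairs was not computed.

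**Figure D3:**
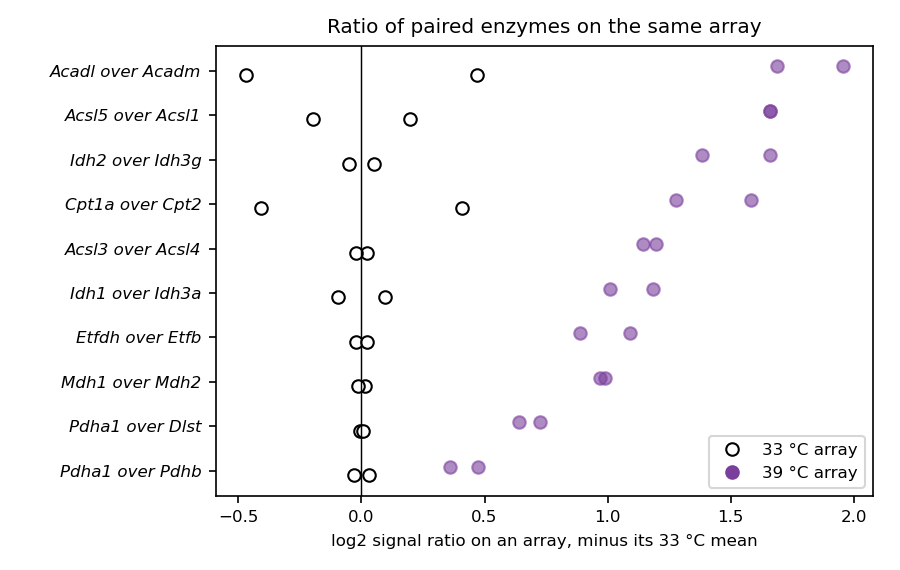
The log2 ratio of the deposited signals of paired enzymes on each array, minus the mean of the 33 °C arrays, is plotted for 10 pairs, with open points for 33 °C and filled points for 39 °C. Every filled point lies to the right of its pair's open points, from 0.36 for Pdha1 over Pdhb to 1.96 for Acadl over Acadm. The pairs were chosen after their values were seen.

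The distance of each pathway from 0 varied with the scaling of the arrays. In the TCA group 5 of 17 were higher and 7 lower, or 70.6% called, against 49.1% of all tested genes, a difference that was not tested. Its median change was -0.15, against 0.0041 for mitochondrial fatty acid oxidation, 0.26 for the synthetases, 0.24 for peroxisomal oxidation and -0.090 for the peroxins. With spike-in scaling, the median of all genes was -0.36 in place of -0.043, and the group medians were -0.60, -0.32, -0.14, -0.090 and -0.35 in that order. The genes described here were then 7 higher and 23 lower. Of the 27 calls, 7 rises (Acadl, Pcx, Cpt1a, Idh2, Acsl3, Acsl5 and Decr1) and 9 falls (Mdh2, Idh3a, Idh3b, Idh3g, Suclg2, Eci2, Etfb, Acsl1 and Pex2) held in every one of the 15 alternatives that tested the gene.

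**Figure D4:**
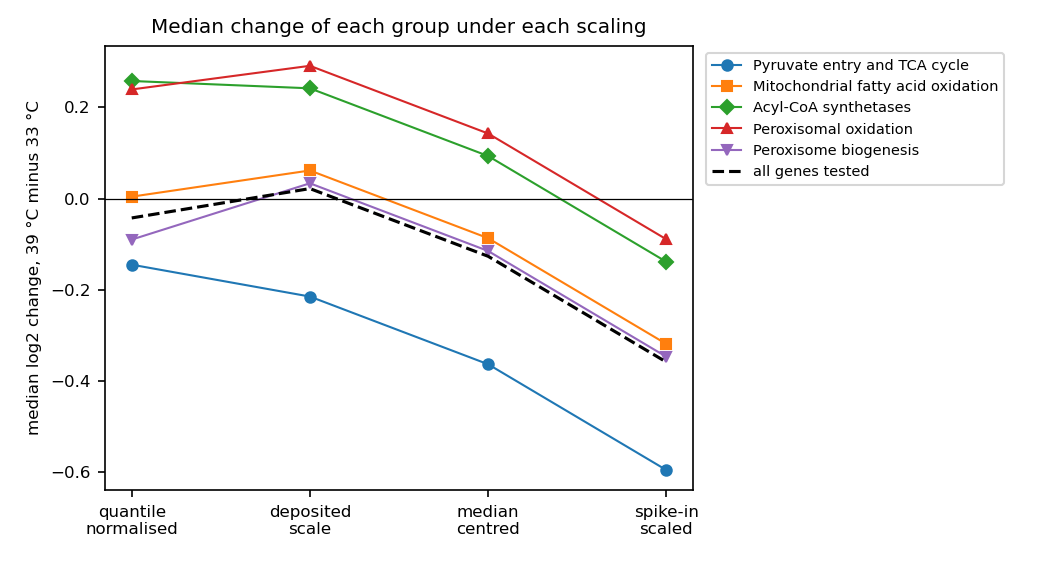
The median log2 change of each group and of all tested genes (dashed line) is plotted for 4 ways of scaling the arrays. Every line is lowest with spike-in scaling, where the median of all genes is -0.36, and the TCA group lies below the dashed line throughout.

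Other genes of the same pathways, from lists that were not used to pick the genes above, also moved both ways. In the lists of TCA, fatty acid and peroxisome genes below, 53.8%, 50% and 57.7% of the tested genes were called. The share over all tested genes was 49.1%. In the list of other TCA cycle and pyruvate genes 5 of 26 tested were higher and 9 lower (median change -0.034), and with spike-in scaling 2 were higher and 16 lower. Of the pyruvate dehydrogenase kinases, which switch the complex off, Pdk2 and Pdk3 rose, Pdk1 fell and Pdk4 lay below the dim limit. Pdk2 was at 6.63 and 6.24 against 7.29 and 7.44 and rose by 0.93. Its mean at the permissive temperature, 6.44, lay below the dim limit, and it passed that limit through its 39 °C arrays. For Pdk2, lying above the limit and being higher are therefore not separate observations. The brighter Pdk3 rose by 0.598, from a mean of 10.62 to one of 11.22. Pdk1 was at 8.19 and 8.28 against 7.32 and 7.37 and fell by 0.89. The Pdk2 call was lost without either 39 °C array (0.83 to 1.02). Nnt, the transhydrogenase that makes NADPH in mitochondria, rose by 0.71. Pck2, which takes oxaloacetate out to phosphoenolpyruvate, fell by 0.72, but was not called when permissive replicate 2 (-0.62) or nonpermissive replicate 2 (-0.58) was left out. The subunits of succinate dehydrogenase, the TCA enzyme of the respiratory chain, were singled out after their values were seen. Sdha, Sdhb and Sdhc had changes of 0.031, -0.0094 and 0.043 and were not called. With spike-in scaling they were called lower, at -0.38, -0.48 and -0.36, and Sdhb was called lower with median-centred arrays too (-0.25). Sdhd, the remaining subunit, was at 0.28 with a call that was lost on the deposited scale (0.22), with median-centred arrays (0.068), as the mean of its probe sets (0.092) and without 3 of the 4 arrays in turn. With spike-in scaling the change of Sdhd was -0.16.

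Among other mitochondrial fatty acid and ketone genes, 5 of 20 tested were higher and 5 lower (median 0.037), and with spike-in scaling 2 were higher and 9 lower (median -0.29). Oxct1, which lets cells burn ketone bodies, had signals of 9.89 and 9.76 at 33 °C and 11.41 and 11.60 at 39 °C, without overlap, and rose 3.21-fold (adjusted p 5.07e-07). Cpt1c, the brain-type relative of Cpt1a, was at 6.98 and 6.89 against 8.22 and 8.32 and rose 2.52-fold. The acyl-CoA thioesterase Acot7 and Ivd, a dehydrogenase of leucine breakdown, each fell by 0.87.

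Of 26 other peroxisome genes tested, 4 were higher and 11 lower, with a median change of -0.21. With spike-in scaling 2 were higher and 12 lower. Catalase (Cat), which breaks down hydrogen peroxide, was at 9.30 and 9.12 against 10.62 and 10.83 and rose 2.87-fold (adjusted p 2.15e-06). Dhrs4, a peroxisomal carbonyl and retinal reductase, was at 8.29 and 8.52 against 6.70 and 6.97 and was 2.96-fold lower, and the CoA hydrolase Nudt19 was 2.24-fold lower. Gnpat, an enzyme of ether lipid synthesis, rose by 0.72, while the mean of its probe sets had a change of 0.19 and was not called. Mvk, Pmvk and Idi1 of the mevalonate pathway, named after their values were seen, fell by 0.76, 0.74 and 0.68.

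Among regulators of oxidative genes, 6 of 22 tested were higher and 1 lower (median 0.22). That is 31.8% called, less than the 49.1% of all tested genes, of which 23.1% were higher. These counts are not read as a property of the regulators. The nuclear receptor Pparg, a partner of RXR that binds fatty acids, was at 6.64 and 6.85 against 8.34 and 8.13 and rose 2.80-fold (adjusted p 0.00011). The estrogen-related receptor Esrra, a regulator of mitochondrial genes, was at 8.25 and 7.85 against 9.03 and 9.23 and rose 2.11-fold (adjusted p 0.000264). The member that fell was Myc, by 0.54. Ppara and the coactivator gene Ppargc1a lay below the dim limit. With spike-in scaling this list had 3 higher and 8 lower.

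**Figure D5:**
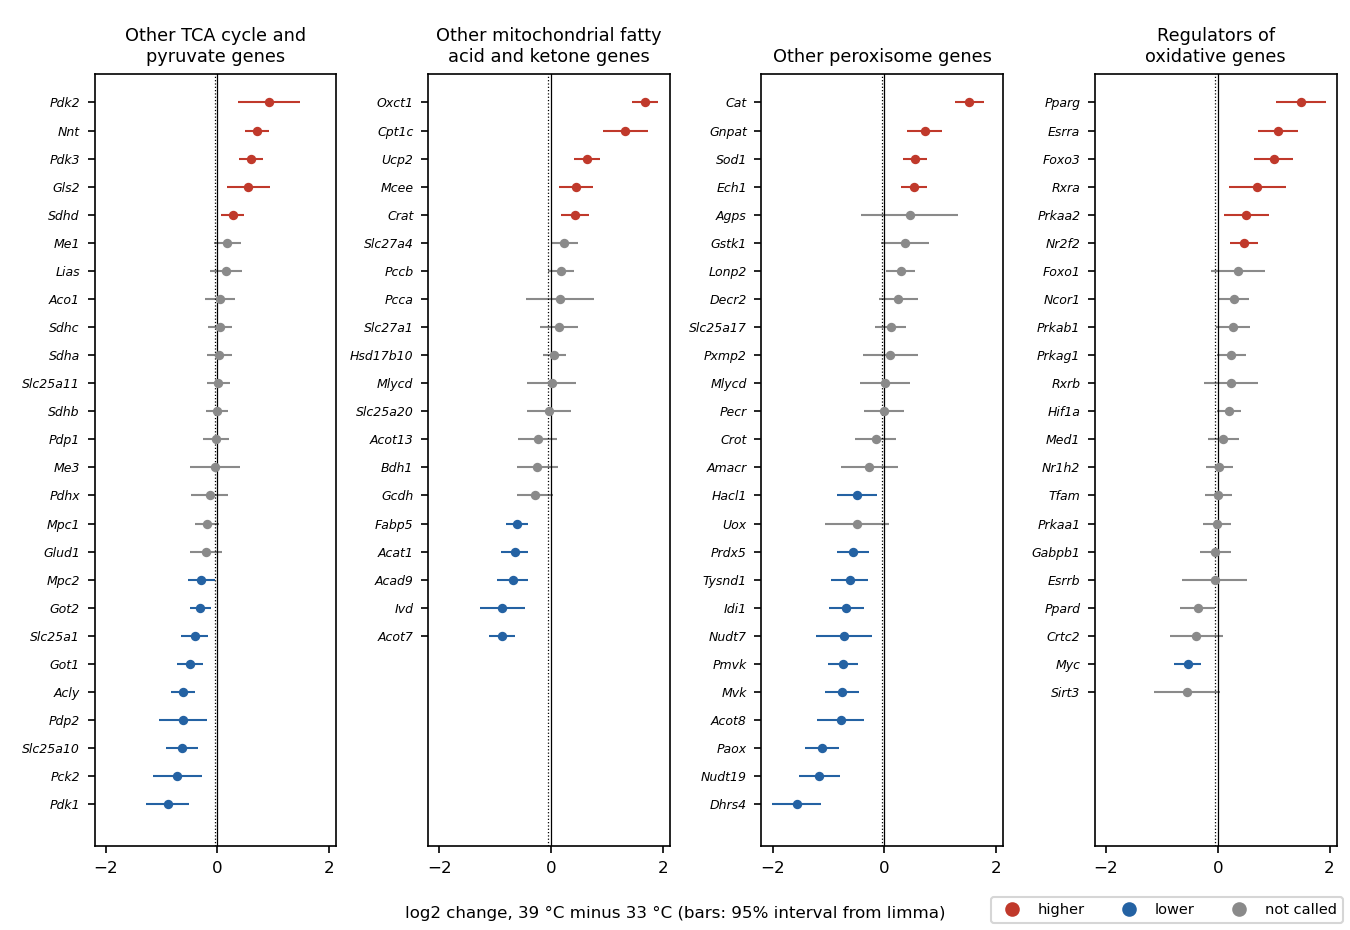
The log2 change of each tested gene of 4 further lists is plotted with its 95% interval from limma, coloured by call, and a dotted line marks the median of all genes. Oxct1 (1.68), Cat (1.52) and Pparg (1.49) lie furthest to the right and Dhrs4 (-1.57) furthest to the left.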

How the data were processed

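Gene expression was measured in 4 samples of RTEC11 cells, 2 per temperature. Per the labels' protocols, DNase-treated total RNA (5 µg) was turned into biotin-labelled cRNA for Affymetrix arrays. The authors deposited 1 intensity per probe set and array on a linear scale, scaled so that the mean after trimming 2% at each end is 500.2 or 500.1. The summarising software was not given in the sources used here. Detection calls were not used here.

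Groups came from the sample titles. The 57 control probe sets were left out, log2(intensity + 16) was quantile normalised, each gene took its brightest probe set (those ending in _x_at only where there was no other), and genes whose mean was under the 40th percentile were left out as dim. Probe sets of several genes (312) or none (2771) were not used. Of 12783 with 1 gene, 12748 matched RefSeq by Entrez identifier and 0 symbols changed. Temperatures were compared with limma 3.58.1 in R 4.3.3 (lmFit, then eBayes with a trend on mean signal), two-sided, on 2 residual degrees of freedom. To these, eBayes added a prior of 9.23 degrees of freedom (median), taken from the variances of all tested genes. The procedure was tested on simulated data. Group lists are described by counts and medians only. Genes given in full were, per list, the top 2 rises and top 2 falls among called genes, and the other genes described are members whose values are given more briefly; exceptions are marked as chosen after their values were seen. Protein sequences, planned as a further part of that rule, were not used here. Figures used matplotlib 3.10.9 in Python 3.11.15.

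The genes, lists and alternatives were chosen with earlier results of these data known. Motifs CCAAT and AGGTCA and the enzyme pairs were added after the values were seen. The alternatives were 3 other scalings (the deposited scale, centring on the median, 24 poly-A spike-in control probe sets), adding 1 or 64, no dim limit or the 60th percentile, averaging the probe sets of each gene, no _x_at or _s_at probe sets, no trend, a block for replicate number, and each array left out in turn. The labels do not say that poly-A controls were added to these samples, and the mean signals of these controls lay near the dim limit.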

Additional observations from a re-analysis of the deposited data

How the results depend on the processing

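The share of calls that were higher, 47.0% over all genes, was 52.3% on the deposited scale, 36.7% with median-centred arrays and 19.2% with spike-in scaling. For the genes described here these shares were 48.1%, 48.0%, 37.0% and 23.3%. With spike-in scaling 800 genes were called higher and 3359 lower, among them 7 and 23 of the genes described here. No other alternative moved these 4 counts by over 1.5 times. The group medians changed as follows. The TCA median was -0.22 on the deposited scale, -0.36 median-centred, -0.60 with spike-in scaling and -0.22 to -0.039 leaving out 1 array. That of mitochondrial fatty acid oxidation was -0.087 median-centred, -0.32 with spike-in scaling, -0.058 with mean probe sets and -0.056 to 0.096 leaving out 1 array. That of the synthetases was 0.093 median-centred, -0.14 with spike-in scaling and 0.81 with the 60th percentile as dim limit, which removes Acsl1, and 0.13 to 0.38 leaving out 1 array. That of peroxisomal oxidation was 0.14, -0.090 and 0.45 under the same settings (the last without Abcd3) and 0.18 to 0.29 leaving out 1 array. That of the peroxins was 0.033 on the deposited scale, -0.35 with spike-in scaling, -0.023 with the 60th percentile, without Pex3, and -0.22 to 0.041 leaving out 1 array. Where not stated, the cause was not tested.

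Single genes whose change turned in sign were, with spike-in scaling, Ogdh (-0.17), Dld (-0.15), Mdh1 (-0.22), Acads (-0.30), Acadvl (-0.28), Hadh (-0.049), Hadhb (-0.32), Acaa2 (-0.13), Hsd17b4 (-0.090), Abcd3 (-0.17), Pex13 (-0.19), Sdha (-0.38), Sdhc (-0.36) and Sdhd (-0.16). With median-centred arrays they were Acads (-0.072), Acadvl (-0.044), Hadhb (-0.087), Sdha (-0.15) and Sdhc (-0.12). On the deposited scale they were Echs1 (0.027), Pex14 (0.082) and Sdha (-0.0014), and with mean probe sets Hadh (-0.071). Of all of these, Mdh1 and Sdhd were the called ones. Leaving out 1 array gave -0.15 to 0.035 for Pdhb, -0.42 to 0.18 for Acadm, -0.12 to 0.12 for Acads, -0.082 to 0.096 for Acadvl, -0.23 to 0.024 for Hadha, -0.17 to 0.052 for Echs1, -0.20 to 0.15 for Pex14, -0.077 to 0.14 for Sdha, -0.064 to 0.040 for Sdhb and -0.014 to 0.099 for Sdhc.

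Of the 27 calls, those of Acsl4, Mdh1 and Pex11a were also lost both with no dim limit and with no intensity trend, that of Etfdh with no dim limit, and that of Dlst with no trend. Sdhd, outside these 27, lost its call with no trend too.

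The samples of both temperatures share the numbers 1 and 2, and deviations of same-numbered arrays correlated at -0.0064. With 2 arrays at each temperature this value cannot show whether same-numbered cultures were handled together, and the labels do not say. With the replicate block, 1737 genes were higher and 1969 lower, with 13 and 14 of the genes described here. A single array left on a side is assumed to vary like the others. Dim probe sets have no measured direction here.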
